A study of Homo sapiens with 9 samples.

Results

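LAN-1 cells that had been frozen, thawed and recovered without a further density gradient were set against LAN-1 cells recovered fresh, with 3 arrays in each condition, which are 6 of the 9 arrays of the series. LAN-1 is an established human neuroblastoma cell line with the GD2 ganglioside on its surface. Cultured cells were mixed into tumor-free bone marrow, mononuclear cells were separated on the density medium Lymphoprep, and the LAN-1 cells were then pulled out by magnetic beads against GD2. In the frozen arrays the mononuclear cells, LAN-1 cells included, had been kept in 20% DMSO at -80°C for 7 days and thawed before the beads were applied. In the fresh arrays the beads followed the gradient at once. The other 3 arrays came from thawed cells that passed a second gradient before the beads, and they are quoted only where their values stand beside those of the 6. Arrays are named by the condition and the replicate number in their deposited titles. No transcript marks the gradient step, so which frozen arrays passed it rests on these titles. With the most variable probe set per gene and the criterion given below, 448 of 18132 genes passed against fresh in the arrays titled without gradient (2.47%) and 16 in those titled with it (0.0882%). The study's own account puts the frozen conditions in the opposite order by number of altered genes. Whether the titles of the frozen arrays are exchanged or the account names its conditions differently cannot be told apart here, so in every value below "without gradient" means the arrays so titled. The samples hold 1 cell line added to marrow, not tumor cells of patients, and bead enrichment can leave marrow cells behind.

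The arrays were labelled from the poly-A tail of the RNA, so a transcript is read best near its 3' end. Most genes have several probe sets, some on the end shared by all transcript forms and others farther upstream or on single forms. A transcript that becomes more or less abundant as a whole moves all of its probe sets, whereas a change in how far the labelled RNA reaches moves only some. For this reason every probe set of a gene was read beside the others. Positions of probe sets along the transcripts were not used here.

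The deposited values are log2 signals from RMA for 49395 probe sets. Of these, 44988 were assigned to a single gene symbol and covered 18132 genes, 11734 of them with 2 or more probe sets and 6398 with 1. The precision is limited by the number of arrays, 3 per condition. Within the 6 arrays, the median correlation of an array with the other 5, taken across probe sets, was 0.986 to 0.992 in the frozen arrays and 0.983 and 0.986 in fresh replicates 2 and 3. Fresh replicate 1 had 0.961 and stood apart, so the main counts, the gene lists and most named calls are also given without it. Over all arrays of the series, replicate 1 of the arrays with gradient stood apart most. Its median correlation with the others was 0.928, against 0.966 for fresh replicate 1. It is outside the comparison, but it shares in the variance of the model and so in the standard errors and p-values below.

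The 3' and 5' control probe sets lay closer together in the frozen arrays. For GAPDH, a glycolytic enzyme, the 3' minus 5' difference of the log2 signals was 1.09, 1.45 and 0.94 in the frozen arrays, against 4.92, 3.56 and 1.56 in the fresh arrays, with no overlap. The mean difference between conditions was -2.19 on the log2 scale (two-sided exact permutation p = 0.1, which is as low as 3 arrays against 3 can give). The 5' probe set of GAPDH had 12.67, 12.31 and 12.90 in the frozen arrays, against 8.56, 10.03 and 12.20 in the fresh arrays, and the 3' probe set 13.76, 13.77 and 13.85, against 13.47, 13.59 and 13.76. So the fresh arrays were spread widely at the 5' end, with fresh replicate 1 the lowest and fresh replicate 3 close to the frozen arrays. Without fresh replicate 1 the mean difference was -1.40, and without fresh replicate 3 it was -3.08.

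For ACTB, the cytoskeletal beta-actin, the 3' minus 5' difference was 3.58, 4.11 and 3.33 in the frozen arrays, against 5.28, 5.41 and 3.88 in the fresh arrays, which overlapped through fresh replicate 3 (exact permutation test, two-sided, p = 0.2). The frozen arrays also had the smaller mean difference in poly-A RNA that the cells do not make. Bacterial poly-A RNAs (dap, lys, phe and thr), which are added before labelling, averaged a 3' minus 5' gap of 1.73, 1.99 and 1.73 in the frozen arrays, against 3.84, 2.87 and 1.93 in the fresh arrays. These overlapped through fresh replicate 3 and frozen replicate 2 (exact permutation test, two-sided, p = 0.2). The bacterial fragments bioB, bioC and bioD, which are added already labelled, had a mean of 0.40, 0.35 and 0.37 in the frozen arrays, against 0.38, 0.32 and 0.39 in the fresh arrays. For this mean the conditions overlapped and the difference was 0.01 (exact permutation test, two-sided, p = 0.7). Of the 3 fragments bioD alone was separate, with 0.497, 0.507 and 0.535 in the frozen arrays, against 0.624, 0.555 and 0.569 in the fresh arrays. Its difference was -0.07 (exact permutation test, two-sided, p = 0.1).

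**Figure D1:**
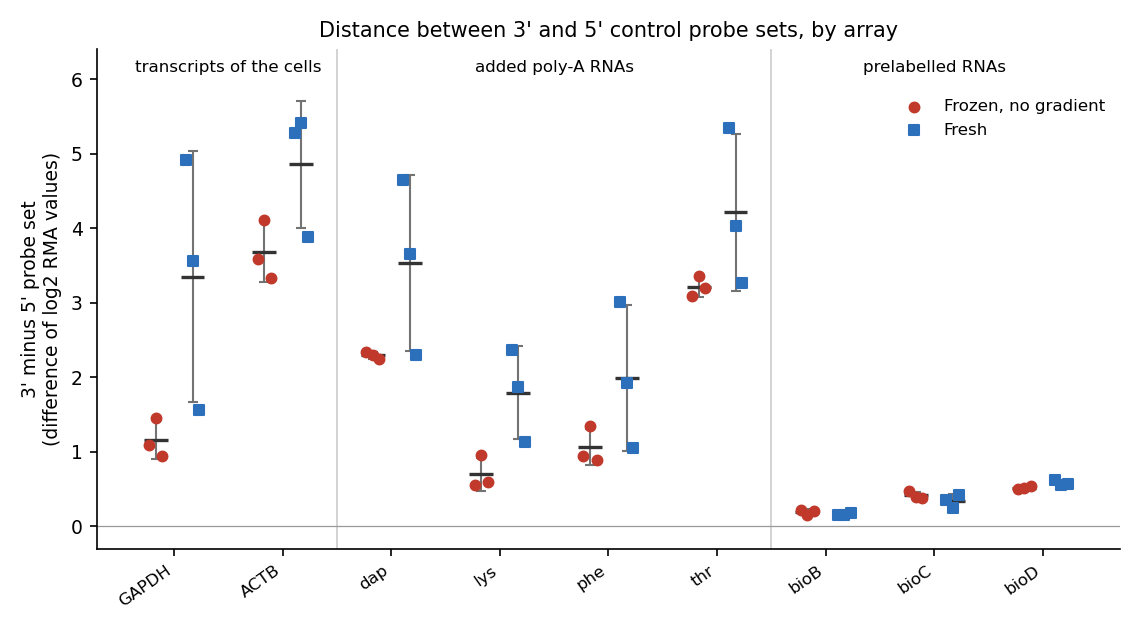
Difference of the log2 signals of the 3' and 5' control probe sets (vertical axis) for 9 control RNAs, with 1 point per array, the mean as a bar and the SD as whiskers (n = 3). For GAPDH the 3 frozen arrays lie between 0.94 and 1.45 and the fresh arrays between 1.56 and 4.92. For the prelabelled RNAs bioB, bioC and bioD the mean differences between conditions are 0.03, 0.08 and -0.07, and bioD does not overlap.

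Far more probe sets were higher than lower in the frozen arrays among those past the criterion used here, an unadjusted limma p under 0.05 and a log2 fold change beyond 1 in either direction. In all, 621 probe sets were higher (1.38% of those tested) and 65 were lower (0.144%). With Benjamini-Hochberg adjustment over all probe sets 0 passed by limma, the smallest adjusted p being 0.258, and 6117 had an unadjusted p under 0.05, 2799 of them higher and 3318 lower. Thus "rose" and "fell" stand below for the unadjusted criterion only. The median log2 fold change of all probe sets was -0.06, and 39.2% were above 0. The counts turned on single fresh arrays, with 110 higher and 19 lower without fresh replicate 1 and 1717 higher and 514 lower without fresh replicate 3. They also moved with an array outside the comparison. Without replicate 1 of the arrays with gradient, 1004 were higher and 66 lower. With the GAPDH 3' minus 5' difference of each array as a covariate, 56 were higher and 233 lower, which turns the excess round. This covariate was 0.94 to 1.45 in the frozen arrays and 1.56 to 6.73 in all others of the series, without overlap. The adjusted contrast therefore rests on a fitted slope and not on arrays of equal value, and it cannot separate condition from labelling reach. Calls said below to hold or to be lost with the covariate carry this limit. How far the labelling reach takes part in the single results was not tested.

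Few genes passed in all of their probe sets, which is a strict demand with 3 arrays per condition. Of the 11734 genes with 2 or more probe sets, 3 rose in every one (0.0256%) and 2 fell in every one (0.017%). In contrast, 456 genes (3.89%) rose in some of their probe sets and not in others, and 49 (0.418%) fell in some only. A single probe set passed in 364 of the 456 and in 47 of the 49, and no gene had probe sets past the criterion in both directions. In the 456 genes the median log2 fold change of the probe sets past the criterion was 1.22, which their selection sets high, and that of the 1405 others was 0.23, with 70% of them above 0. All probe sets were above 0 in 204 of the 456, and in 36 all were higher with an unadjusted limma p under 0.05. Passing in some probe sets only is thus not the same as disagreement in direction. In the 49 genes the values were -1.05 and, for the 132 others, -0.08, with 65.2% below 0.

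HBB and SELENOP fell in every probe set. HBB, the beta chain of adult hemoglobin made by red cell precursors, had 3. Its brightest probe set had log2 signals of 5.59, 9.33 and 8.83 in the frozen arrays, against 10.76, 12.18 and 12.72 in the fresh arrays. The conditions were separate and frozen replicate 1 was far below the other two. The log2 fold changes of the 3 probe sets were -3.97 (standard error 0.91), -2.06 (0.51) and -2.70 (0.65), each with an adjusted p of 0.258 from limma. In bulk RNA, fewer cells of a type and less RNA per cell cannot be told apart. All 3 IDs end in _s_at or _x_at, which mark probes shared with related transcripts, so signal from other globin genes may be counted with HBB. SELENOP, a secreted protein that carries selenium, had 4.64, 5.93 and 4.92 in the frozen arrays, against 6.15, 7.14 and 6.93 in the fresh arrays in its first probe set, and its log2 fold changes were -1.57 (standard error 0.46) and -2.00 (0.50). Its conditions were separate in both probe sets. HBB and SELENOP fell in every probe set also without fresh replicate 1 and with the GAPDH covariate.

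MCM2, PGD and TXNDC12 rose in every probe set. MCM2, a subunit of the helicase that opens DNA for replication, had 4 probe sets with log2 fold changes of 1.44 (standard error 0.40), 1.19 (0.28), 2.01 (0.72) and 1.30 (0.33). The third of them had 9.39, 9.16 and 9.38 in the frozen arrays, against 6.06, 7.25 and 8.60 in the fresh arrays. All 4 were separate between conditions, with the frozen arrays close to each other and fresh replicate 1 lowest each time. PGD, an enzyme of the pentose phosphate pathway, had 9.46, 8.89 and 8.99 in the frozen arrays, against 7.19, 7.89 and 8.50 in the fresh arrays in 1 probe set, and log2 fold changes of 1.25 (standard error 0.46) and 1.62 (0.54). TXNDC12, a thioredoxin-like protein of the endoplasmic reticulum, had 7.68, 7.39 and 7.87, against 6.23, 6.62 and 7.08 in its higher probe set, and log2 fold changes of 1.501 (standard error 0.54) and 1.004 (0.23). In all of these the conditions were separate and fresh replicate 3 lay nearest to the frozen arrays. None of the 3 rose in every probe set without fresh replicate 1 or with the GAPDH covariate, where the smallest log2 fold change was 0.85 and 0.88 for MCM2, 0.92 and 0.45 for PGD, and 0.80 and 0.70 for TXNDC12. MCM2 and TXNDC12 also lost a probe set without fresh replicate 2, frozen replicate 1 or frozen replicate 3, and PGD without fresh replicate 2 or frozen replicate 1. TXNDC12 lost one as well under median centring and with array weights.

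**Figure D2:**
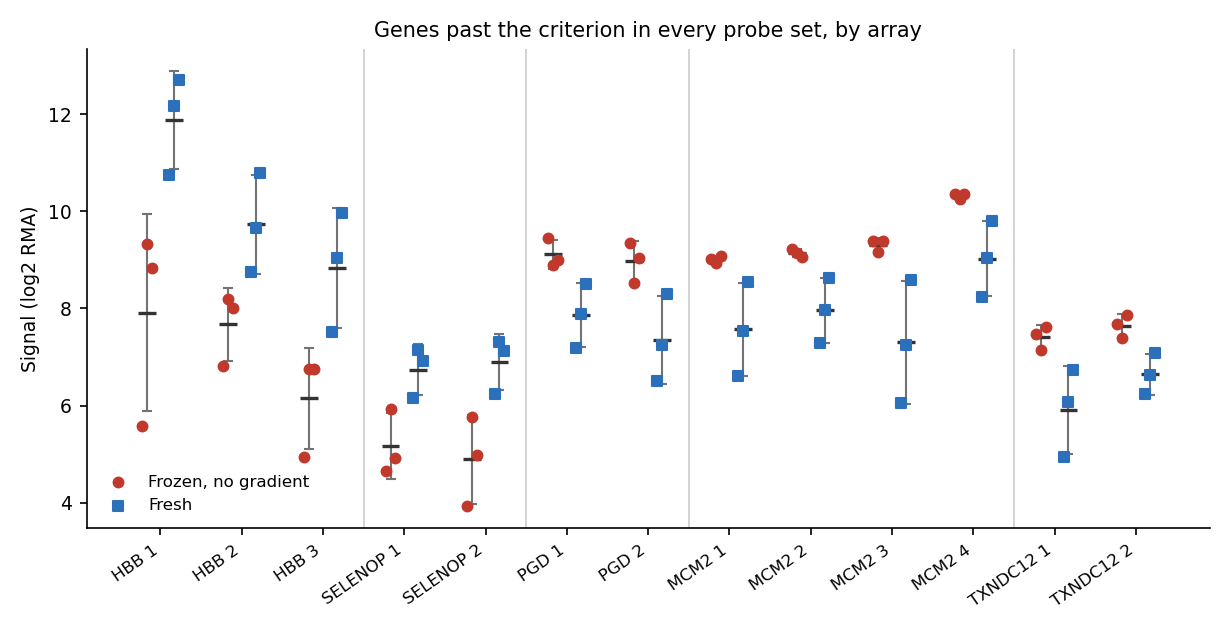
Log2 RMA signal (vertical axis) of all probe sets of HBB, SELENOP, PGD, MCM2 and TXNDC12, with 1 point per array, the mean as a bar and the SD as whiskers (n = 3). No probe set overlaps between conditions, and the fresh arrays of PGD, MCM2 and TXNDC12 spread more than the frozen ones.

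Dropping the fold threshold widened the list of genes whose probe sets moved together. By limma, 95 genes (0.81%) had every probe set higher with an unadjusted p under 0.05, and 51 (0.435%) had every probe set lower. Without any p, all probe sets of 185 genes (1.58%) had the 3 frozen arrays above the 3 fresh ones, and those of 150 (1.28%) had them below. Among the 95 were MCM3, another helicase subunit, with 0.76 to 2.01 over 4 probe sets, and CDC25B, a phosphatase that drives entry into mitosis, with 0.90 to 1.28 over 5. Also among them were CRMP1, a protein of growing axons, with 0.65 to 1.81 over 4, and TH, which makes the precursor of catecholamines, with 0.63 to 1.13 over 3. ALAS1, which starts heme synthesis, had 0.78 to 0.93 over 4 probe sets. HBB and SELENOP were among the 51 lower genes. SOCS6, a regulator of cytokine signalling, had -0.89 and -0.76, and TMEM65 -0.80 and -0.73. MCM3, CDC25B, ALAS1, SOCS6 and TMEM65 were picked after their values were seen.

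In other genes the probe sets differed widely in fold change. Most of the genes named next were picked for a wide range between probe sets, so they do not stand for the rest. EEF1G, a subunit of translation elongation factor 1, had 2 probe sets with log2 fold changes of 0.11 and 0.12 and a dimmer one with 2.503 (standard error 1.04). In the dimmer one it had 12.18, 11.54 and 11.94 in the frozen arrays, against 7.85, 9.15 and 11.15 in the fresh arrays. In the first of the others it had 13.97, 13.88 and 13.87, against 13.77, 13.80 and 13.84. So the probe sets with the higher signal were nearly level, and the dimmer one separated mainly through fresh replicates 1 and 2. HNRNPA1, which binds pre-mRNA, had 2.40 (standard error 0.94) in its dimmest probe set and -0.08 to -0.24 in 4 others. ERP29, a chaperone of the endoplasmic reticulum, had 2.499 (standard error 0.77) in 1 probe set, with 8.63, 8.02 and 8.85 in the frozen arrays, against 4.41, 5.95 and 7.65 in the fresh arrays. Its other 3 had -0.11 to 0.17. EEF2, the elongation factor that moves the ribosome along, rose in 2 of 8 probe sets, with 2.54 (standard error 0.92) and 2.30 (0.98), and had -0.16 in the brightest.

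In some genes probe sets pointed opposite ways. SRSF11, a splicing factor, had 2.04 (standard error 0.45) in 1 probe set, with 6.09, 5.13 and 5.87 in the frozen arrays, against 3.06, 3.27 and 4.64 in the fresh arrays. Another of its 6 probe sets had -0.55 (0.20), with 10.14, 10.23 and 10.12, against 11.09, 10.73 and 10.33. Both were separate between conditions, and fresh replicate 3 was the nearest to the frozen arrays in each. KMT2E, a chromatin protein, had 1.70 (standard error 0.61) in 1 of 9 probe sets and -0.85 (0.25) in another. POLR2C, a subunit of RNA polymerase II, had 2.10 (0.69) in 1 of 4 and -0.43 (0.24) in another. ATP6V1A, the catalytic subunit of the vacuolar proton pump, rose in 2 of 5, with 1.54 (0.43) and 1.84 (0.72), and had -0.63 (0.23) in its brightest. RSRC2 rose in 1 of 7, with 1.49 (0.57), and its others ran between -0.70 and 1.77. The probe set with 1.77 passed in 4 of 19 alternative settings. MYCN, the oncogene amplified in many neuroblastomas, did not pass in any of its 4 probe sets. Its values were 0.21, -0.21, -0.04 and 1.91 (standard error 1.04). The last had 11.40, 11.38 and 11.67 in the frozen arrays, against 8.14, 9.45 and 11.11 in the fresh arrays. It did pass in 5 of 19 alternative settings.

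With the GAPDH covariate the largest log2 fold change went to 0.60 in EEF1G, 0.71 in HNRNPA1, 0.93 in EEF2, 0.68 in KMT2E and -0.0025 in MYCN. ERP29 with 1.24 and SRSF11 with 1.39 still passed. The largest change in each of EEF1G, HNRNPA1, EEF2, KMT2E, POLR2C and ATP6V1A no longer passed when fresh replicate 1 was left out, when fresh replicate 2 was, and when at least 1 of the frozen arrays was. The other call of ATP6V1A (1.54) held in each fit that left out 1 array and with the covariate.

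**Figure D3:**
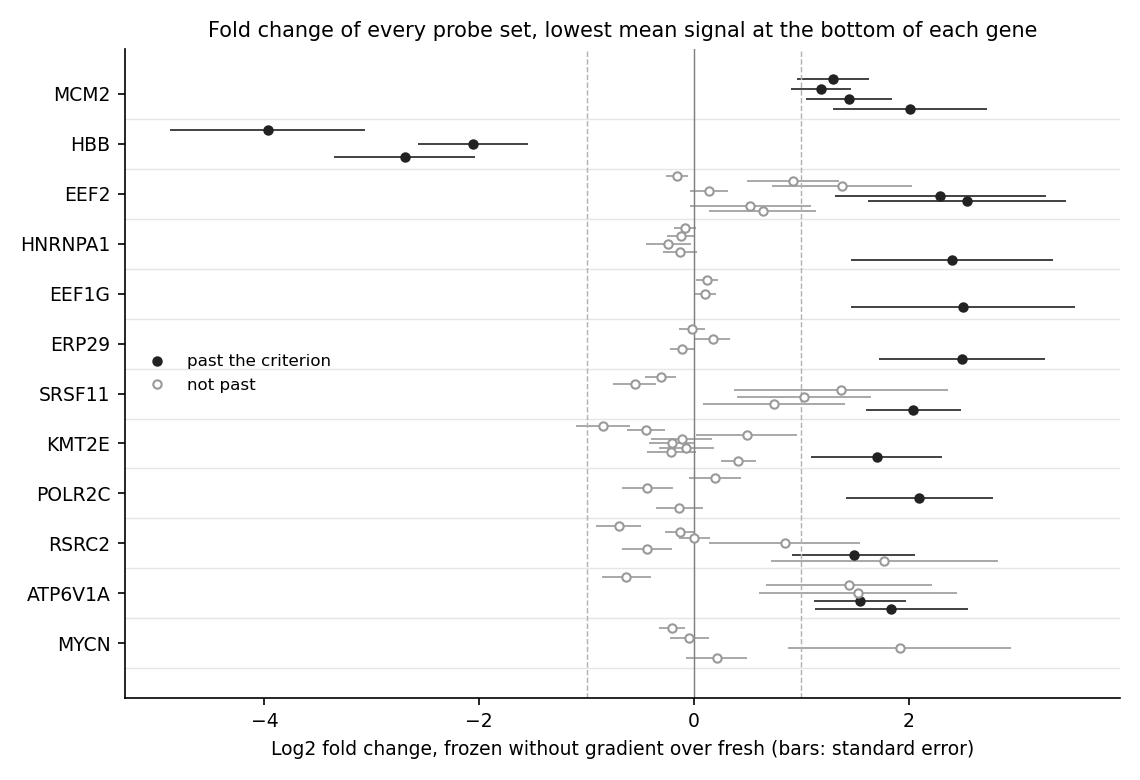
Log2 fold change, frozen without gradient over fresh, of every probe set of 12 genes (horizontal axis, whiskers give the standard error), with filled points past the criterion and dashed lines at 1 and -1. The probe sets of MCM2 and HBB lie on one side, while in EEF1G, HNRNPA1 and ERP29 a single probe set lies above 2 and the others lie near 0.

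The difference between probe sets of a gene was also fitted. For each of the 11734 genes, the probe set with the lowest mean over the 9 arrays was subtracted from the one with the highest mean, and this difference was fitted by limma. The ranking used the compared arrays themselves, so it was not independent of the contrast. Fresh arrays and those with gradient outnumber the frozen ones in that mean, which favors pairs lying far apart in them. How far this adds to the excess of smaller differences was not tested. The difference was smaller in the frozen arrays in 419 genes (3.57%) and larger in 41 (0.349%) at the same criterion. By limma 0 had an adjusted p under 0.05, the smallest being 0.211, and 2038 had an unadjusted p under 0.05, 1698 smaller and 340 larger. In the 419 genes the median log2 fold change was 0.95 for the dimmer probe set and -0.34 for the brighter one. HBB was among the 419, with both probe sets lower. Per array, the median difference over all genes was 1.97, 1.95 and 1.88 in the frozen arrays, against 2.21, 2.16 and 1.97 in the fresh arrays. Fresh replicate 3 lay closest to the frozen arrays. Without fresh replicate 1 the criterion gave 95 smaller and 4 larger, and with the GAPDH covariate 110 and 22.

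**Figure D4:**
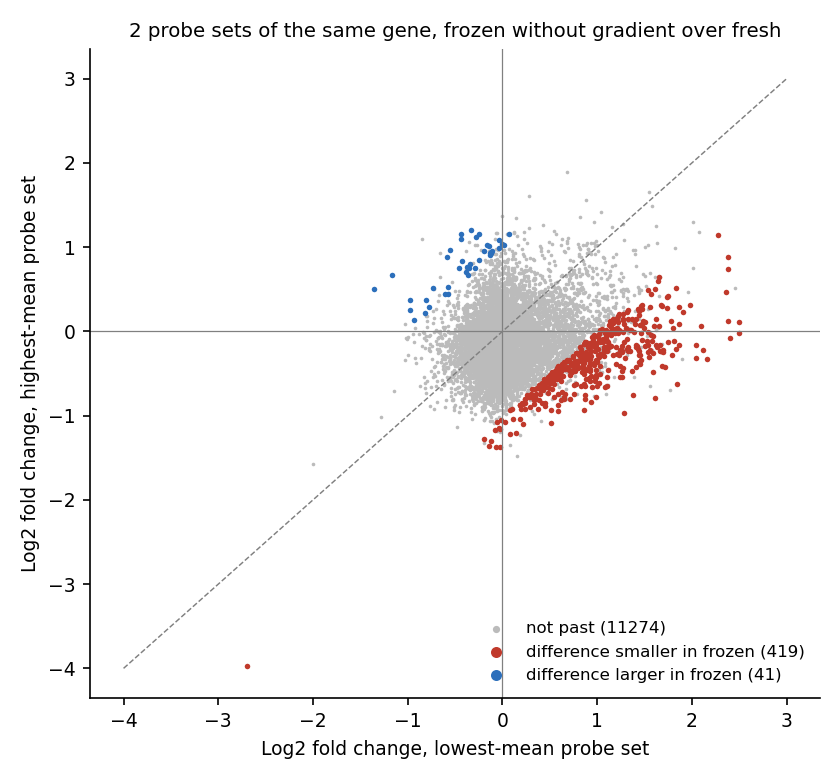
Log2 fold change, frozen without gradient over fresh, of the lowest-mean (horizontal axis) and highest-mean (vertical axis) probe set of 11734 genes, with the dashed line where both are equal. The 419 genes whose difference was smaller in the frozen arrays lie below the line, most of them right of 0, and HBB lies alone at the lower left.

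Where in a gene's order of brightness a probe set stood went with how often it passed. This order was taken from the mean of the same 9 arrays, so it too was not independent of the contrast. Among the highest-mean probe sets 40 rose and 29 fell (0.341% and 0.247% of 11734). Among the lowest-mean ones 221 rose and 11 fell (1.88% and 0.0937%), and among the 15122 in between 328 rose and 17 fell (2.17% and 0.112%). Of the 456 genes that rose in some probe sets, 37 did so in the brightest, as did 27 of the 49 that fell. Genes with more probe sets had more chances to be called. At least 1 probe set rose in 0.5% of genes with 1, in 1.67% with 2, in 3.25% with 3, in 5.39% with 4 and in 8.87% with 5 or more. By the ending of the ID, 1.84% of _a_at, 1.96% of _x_at, 0.967% of _s_at and 0.25% of _at probe sets rose.

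Among genes with a single probe set, 32 rose (0.5%) and 8 fell (0.125%). For these no second probe set was there to compare. FGF10, a growth factor of mesenchyme, rose by the largest fold and had 8.01, 8.27 and 7.31 in the frozen arrays, against 5.55, 5.68 and 6.77 in the fresh arrays, which is 1.86 on the log2 scale (standard error 0.49). Its conditions were separate and the call held in each fit that left out 1 array and with the GAPDH covariate (1.10). RPL23, a protein of the large ribosomal subunit, had 13.60, 13.26 and 13.33, against 10.68, 11.78 and 12.77, with 1.65 (standard error 0.46), and it also held (1.36 with the covariate). SRP9 of the signal recognition particle had 1.84 (standard error 0.80), the tetraspanin TSPAN3 1.58 (0.49) and the splicing factor PRPF6 1.51 (0.58). All 3 were lost with the covariate. TSPAN3 held in each fit that left out 1 array. PRPF6 was lost without fresh replicate 1 or 2 and without frozen replicate 1 or 3. SRP9 was lost without fresh replicate 1 or 2, without any of the frozen arrays, without replicate 2 of the arrays with gradient, under median centring and with a floor of 5 on the mean log2. Of those that fell, GCSH, which carries intermediates in glycine cleavage, had 7.66, 8.02 and 8.02 in the frozen arrays, against 9.17, 9.18 and 8.37 in the fresh arrays, with -1.01 (standard error 0.22), and the call was lost without fresh replicate 1 (-0.88), fresh replicate 2 or frozen replicate 1, with the GAPDH covariate and under cyclic loess.

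The other single-probe-set genes with the largest decreases were genes of granulocytes. S100A8, a calgranulin of neutrophils and monocytes, had log2 signals of 6.43, 8.01 and 5.56 in the frozen arrays, against 11.80, 9.29 and 9.20 in the fresh arrays. S100A12, a related calgranulin, had 4.61, 4.70 and 4.28, against 8.92, 6.36 and 6.48. MMP9, a matrix protease stored in neutrophil granules, had 4.001, 3.73 and 3.69, against 6.76, 4.67 and 4.76. In these 3 genes the conditions were separate and fresh replicate 1 was the highest array. The log2 fold changes were -3.43 (standard error 0.93), -2.72 (0.63) and -1.59 (0.48). Without fresh replicate 1 they were -2.58, -1.89 and -0.91, the last no longer past the criterion, and with the GAPDH covariate -2.72, -1.95 and -1.17, all past it. LCN2, a lipocalin of neutrophil granules, had -1.15 (standard error 0.33), and -0.75 without fresh replicate 1. Its call was lost there, with the GAPDH covariate and with array weights.

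The list of granulocyte genes, precursors included, had 25 measured members, of which 7 fell and none rose. In probe sets this was 7 of 38, or 18.4%, against 0.144% of all probe sets. The list was drawn up with earlier results of these data known. Besides S100A8, S100A12, MMP9 and LCN2, these were S100A9, MMP8 and LTF. S100A9, the partner of S100A8, had 5.63, 7.49 and 5.14 in the frozen arrays, against 9.37, 7.44 and 8.01 in the fresh arrays, which overlapped at frozen replicate 2 (-2.19, standard error 0.80, in its only probe set). MMP8, a collagenase, fell in 1 of 4 probe sets (-1.04, the others -0.11 to -0.20) and LTF, the iron-binding lactoferrin, in 1 of 2 (-1.38 and -0.03). CAMP, the cathelicidin, had -0.94 (standard error 0.21) and did not pass. All probe sets were below 0 in 24 of the 25 genes, against 45.5% of all genes. The median over genes of the mean log2 fold change was -0.45, against -0.07 over all genes. The mean log2 level of the list was 3.86 to 4.05 in the frozen arrays, against 4.25 to 5.14 in the fresh arrays. Without fresh replicate 1, 2 probe sets of the list fell, and with the GAPDH covariate 3.

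**Figure D5:**
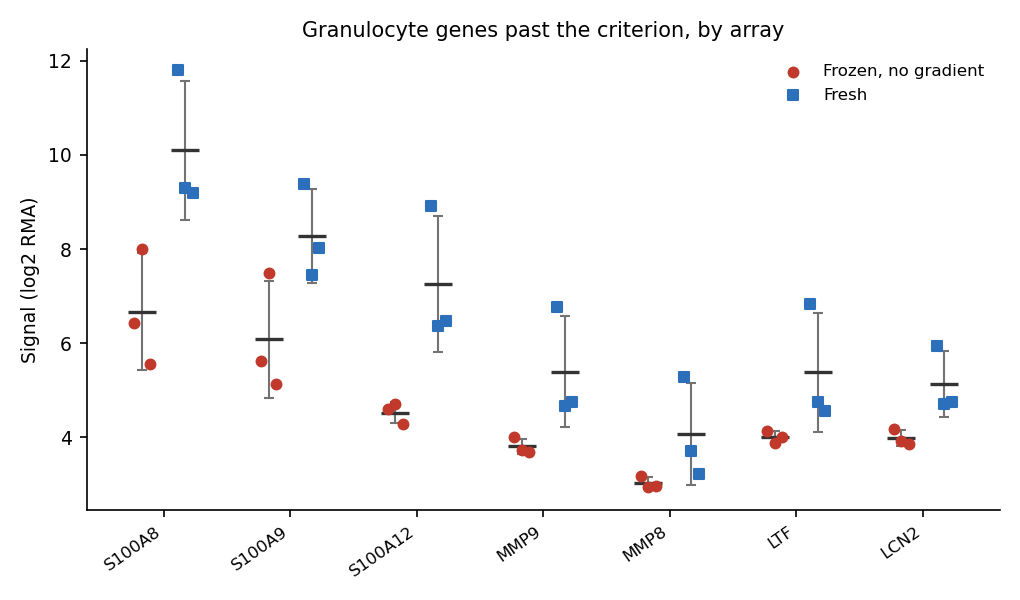
Log2 RMA signal (vertical axis) of the 7 granulocyte genes past the criterion, with the probe set of smallest p where there are several, 1 point per array, the mean as a bar and the SD as whiskers (n = 3). S100A8 lies between 5.56 and 8.01 in the frozen arrays and between 9.20 and 11.80 in the fresh arrays, and fresh replicate 1 is the highest array in all 7.

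Among 12 erythroid genes HBB alone fell, its 3 probe sets making 13% of the 23 of the list, against 0.144% of all probe sets. Of the 12, 11 had all probe sets below 0, with a median over genes of -0.29 and a mean log2 level of 4.92 to 5.27 in the frozen arrays, against 5.62 to 5.77 in the fresh arrays. HBM, a minor globin, had 5.17, 5.59 and 5.23, against 6.08, 6.04 and 5.81, with -0.65 (standard error 0.19), and AHSP, which chaperones alpha-globin, had -0.45 (0.16). Neither passed. The 3 probe sets of HBB also fell without fresh replicate 1 and with the GAPDH covariate. Of 21 genes of monocytes and macrophages C1QB, a chain of complement C1q, fell in 1 of 2 probe sets (-1.03 and -0.19), which is 1.59% of the 63 probe sets of the list. VCAN, a matrix proteoglycan, rose in 1 of 9, and its other probe sets ran between -0.57 and 1.20. FCGR3A, an Fc receptor, had -0.68 (standard error 0.13) and CD163, a scavenger receptor, -0.55 (0.18), without passing. No probe set passed in 13 genes of platelets, 21 of T and NK cells or 15 of B and plasma cells, with medians of -0.19, -0.14 and -0.09, where 0.144% of all probe sets fell and the lists held 27, 50 and 37. In 18 further leukocyte and stromal genes CORO1A rose in 1 of 4 probe sets, or 1.67% of the 60 of the list, against 1.38% of all. The calls of VCAN and CORO1A were lost without fresh replicate 1 and with the GAPDH covariate.

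The labelled cell type was checked by its defining genes, several of which were bright in both conditions. Of 26 genes of neuroblastoma identity TH, HAND2 and NCAM1 rose in some probe sets (3 of 71, 4.23%, against 1.38% of all) and none fell, the median over genes being 0.05 and the mean log2 level 7.39 to 7.75 in the frozen arrays, against 7.36 to 7.51 in the fresh arrays. HAND2, a transcription factor of sympathetic neurons, had 12.89, 12.88 and 12.64 in its brighter probe set, against 12.69, 12.72 and 12.74, and 1.48 (standard error 0.45) in its dimmer one. NCAM1, a cell adhesion molecule, rose in 1 of 6 (1.14, standard error 0.37). In the list 1 probe set rose without fresh replicate 1, and 1 with the GAPDH covariate. TH was the only one of the 26 with every probe set at an unadjusted p under 0.05, and its highest array was frozen replicate 1 in each. PHOX2A, another transcription factor of these neurons, had 0.29 (0.17). The list also holds enzymes around GD2 synthesis. ST8SIA1, which makes the precursor of GD2, had 5.55, 5.44 and 5.13, against 6.78, 6.08 and 5.67, with -0.80 (0.35), separate but not past the fold. B4GALNT1, which makes GD2 from it, had -0.49 to 0.22 over 7 probe sets. DBH, which makes noradrenaline, had 9.29, 8.31 and 7.01, against 8.97, 8.21 and 6.95, so its spread between replicates far exceeded the difference of 0.16 between conditions.

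Increases in single probe sets were frequent in highly expressed genes of protein synthesis and RNA processing. Of 38 translation factors 7 rose in some probe set (12 of 146 probe sets, 8.22%), of 50 splicing factors and hnRNP proteins 8 (11 of 217, 5.07%) and of 65 ribosomal proteins 7 (8 of 174, 4.6%), against 1.38% of all probe sets. None of the members with several probe sets rose in all of them, and none fell. The medians over genes were 0.38, 0.36 and 0.22 for the mean of the probe sets and 0.11, 0.10 and 0.10 for the brightest, against -0.07 and -0.11 over all genes. EIF3L, a subunit of initiation factor 3, had 0.67, 0.64 and 0.46 in 3 probe sets and 2.36 (standard error 0.70) in the fourth, all separate between conditions. EIF3D of the same complex had 0.74 and 0.72. SNRPA of the U1 particle had 0.99, 0.41, 0.98 and 1.08, and RPS25 of the small ribosomal subunit 0.43 to 0.76 over 4 probe sets. So these members were higher in all probe sets, mostly by less than the fold threshold. EIF3J, also of initiation factor 3, had -0.36 (0.15) and 0.29 (0.12), both separate and in opposite directions. Without fresh replicate 1, 1, 1 and 2 probe sets of the 3 lists rose, with the GAPDH covariate 1 of each, and without fresh replicate 3 the numbers were 32, 38 and 18. With the covariate 2 probe sets of the splicing list fell.

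Metabolic genes also rose in single probe sets. Of 29 nuclear-encoded respiratory genes 5 rose in some probe set (8 of 76 probe sets, against 1.38% of all probe sets), among them COX5A and the ATP synthase subunits ATP5F1A and ATP5F1C. Of 18 glycolytic genes HK1, PGAM1 and ENO2 did (5.56% of probe sets), and of 18 genes of cholesterol synthesis LSS and MSMO1 (6.52%). LSS, which closes the sterol ring, was higher in all 3 probe sets (1.06, 0.72 and 0.50), and FDPS, which makes farnesyl diphosphate, in both (0.70 and 0.75, not past the fold). The probe sets of FDPS had equal signals on several arrays, so they are not separate readings. In 27 proteasome genes PSMD4 rose in 1 probe set, or 1.59% of 63, near the share over all. In 41 genes of DNA replication and mitosis MCM2, MCM3, MCM7 and RFC1 rose (8 of 97 probe sets, 8.25%), and in 29 of neurites and microtubules CRMP1, STMN1, TUBB and KIF1A (6 of 102, 5.88%). All probe sets were above 0 in 15 of the 41 replication and mitosis genes (18.7% of all genes) and below 0 in 11 (45.5% of all genes). AURKA (-0.47, standard error 0.16) and CENPE (-0.51, 0.18), each with 1 probe set, were lower and separate between conditions without passing. AURKB, also with 1 probe set, was higher and separate without passing (0.70, standard error 0.30). Without fresh replicate 1 no probe set of the glycolytic, proteasome or replication lists rose, and 2 each did in the respiratory, cholesterol and neurite lists. With the GAPDH covariate 1 probe set each fell in the glycolytic, respiratory and replication lists, where 233 of all 44988 fell. With it 1 rose in the cholesterol list, 3 in the neurite list and none in the other 4. CRMP1, in contrast, had 8.69, 8.01 and 8.38 in the frozen arrays, against 5.88, 6.29 and 7.48 in the fresh arrays, in a probe set with 1.81 (standard error 0.39).

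Lists of acute stress differed in how often their probe sets passed, against 1.38% higher and 0.144% lower over all. None of 29 immediate early genes and none of 28 p53 target and apoptosis genes passed in any probe set (84 and 118 probe sets), with medians over genes of -0.07 and -0.09 (-0.07 over all genes). FOS, which responds within minutes to many stimuli, had -0.65 to -0.07 over 4 probe sets, EGR1 -0.42 to 0.15 over 6 and ATF3 -0.25 to 0.15 over 7. In 26 heat shock proteins HSPA9 and HSP90AB1 rose in 1 probe set each (2.15% of 93). CIRBP, an RNA-binding protein induced by mild cold, had 1.21 (standard error 0.55), 0.38 and 0.30 and did not pass, and in 10 cold-related genes only RTN3 rose, in 4 probe sets (14.8% of 27). In 25 genes of the unfolded protein and integrated stress response PDIA6, a disulfide isomerase, rose in 2 of 3 probe sets with 0.66 in the third (3.17% of the 63 of the list). DDIT3, the transcription factor CHOP, was higher in both of its probe sets without reaching the fold. The first had 5.58, 5.09 and 5.04 in the frozen arrays, against 4.59, 4.67 and 4.78 in the fresh arrays (0.55, standard error 0.18), and the second 0.50 (0.20), all arrays separate. In 24 redox genes PRDX2 and PRDX3 rose in 1 probe set each (3.08% of 65), in 19 hypoxia-inducible genes BNIP3L and HIF1A in some (5.63% of 71), and in 15 genes of MHC class I presentation B2M in 2 of 8 (3.03% of the 66 of the list). No probe set of these 6 lists rose without fresh replicate 1, without fresh replicate 2 or with the GAPDH covariate. With that covariate 1 fell in the heat shock list and 1 in the unfolded protein list. In the redox and p53 lists 2 each fell with it. Of the BNIP3L probe sets past the criterion, 2 had the same values on every array (1.69 each), so they are 1 reading counted as 2. Some members were lower in every probe set without passing. MT1G, a metallothionein, had -0.63, -0.25 and -0.34, and P4HA1 of the hypoxia list -0.59, all separate. All probe sets were below 0 in 9 of the 24 redox and 8 of the 19 hypoxia-inducible genes, and above 0 in 9 and 2.

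The qPCR normalization genes of the study differed among their probe sets as well. RPL11 had 14.02, 14.01 and 13.95 in the frozen arrays, against 13.85, 13.90 and 13.93 in the fresh arrays, in its brighter probe set (0.10, standard error 0.09), and 0.87 (0.22) in the other. RPL19 had 0.27 (0.10) and 0.45 (0.12), both separate, and ALDOA, a glycolytic aldolase, 0.47 (0.24) and 0.57 (0.33). None passed. MAP1B, a microtubule protein of axons, had 1.34 (0.94), 0.56, 1.05, -0.15 and -0.24. None of these passed, but the first did in 3 of 19 alternative settings. Of the 60 measured genes of the study's qPCR panel APP, CSNK1G2, OLFM1 and SERPINF1 rose in some probe set and none fell (13 of 228 probe sets, 5.7%, against 1.38% of all). Of the 228, 3 rose without fresh replicate 1 and 1 with the GAPDH covariate.

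Some calls stayed past the criterion whichever single array was left out, out of the 621 higher and 65 lower among 44988 probe sets. These fits reuse the arrays that made the calls, and 3 of them drop an array outside the comparison, so they are no independent support. In the fits that left out each of the 9 arrays in turn, 93 probe sets of 84 genes rose and 11 of 8 genes fell every time, and 41 of 37 genes and 9 of 6 genes also did so with the GAPDH covariate. CRMP1 was among the 41, as were FGF10 and ERP29. Of the 9, 3 were those of HBB, 2 those of SELENOP, and the others belonged to S100A8, S100A12, DDX25 and NPY2R. DDX25 and NPY2R were picked after their values were seen. DDX25, an RNA helicase best known from the testis, had 6.35, 6.56 and 6.70 in the frozen arrays, against 8.12, 8.10 and 7.52 in the fresh arrays, with -1.38 (standard error 0.19, unadjusted p = 5.67e-05 from limma). NPY2R, a receptor of neuropeptide Y, had 5.32, 5.94 and 5.85, against 7.25, 7.48 and 6.46, with -1.36 (0.28). In both genes the other probe sets, with signals below 5, had -0.07 to -0.15.

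The arrays of thawed cells with a second gradient share the same fresh arrays, so their values are set beside the above without a count of overlap. Over fresh, the 3 probe sets of HBB had log2 fold changes of -3.97, -2.06 and -2.70 without gradient, against -2.09, -1.62 and -2.15 with it. S100A8 had -3.43 without gradient and -1.54 with it, and DDX25 -1.38 and -0.998. The 4 probe sets of MCM2 had 1.44, 1.19, 2.01 and 1.30 without gradient, against 0.39, 0.41, -0.16 and 0.33 with it. The dim probe set of EEF1G had 2.503 without gradient and -0.45 with it. Set directly against those with gradient, the arrays without gradient were higher in all 4 probe sets of MCM2, by 0.77 to 2.17 (adjusted p = 0.25 from limma), and the GAPDH 3' minus 5' difference was 1.09, 1.45 and 0.94 without gradient, against 6.73, 2.90 and 2.07 with it.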

How the data were processed

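Total RNA (100 ng per sample) was hybridized to 1 PrimeView array each. Per the study's methods, the authors computed the deposited log2 values with RMA, a method of background correction, quantile normalization and probe summary. They were used unchanged, and no raw intensities were used. Because quantiles were matched across arrays, a shift common to all probe sets would not be seen. The RMA version is not given in the sources used here. Probe sets were named from GEO's platform annotation. Some probe sets of a gene had the same values on all arrays and were still counted separately. Of 49395, 102 controls, 1832 with several symbols and 2473 with none were left out.

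Computation used R 4.3.3 and limma 3.58.1. All 9 arrays entered 1 model with a mean for each of 3 conditions, no other term, and Benjamini-Hochberg adjustment over all 44988 probe sets. Control 3' minus 5' differences were compared by exact permutation of 3 against 3 arrays (10 ways). Replicates are biological per the methods. Their p-values measure the spread between 3 samples each.

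Named genes were those with every probe set past the criterion, the 8 with the widest range between probe sets, the 5 largest increases and decreases among genes with 1 probe set whose conditions did not overlap (S100A9, named from its list, overlapped), up to 4 members per list by the largest p over their probe sets, the study's normalization genes and CDKN2C and MAP1B, and HBB, S100A8, EEF1G, HNRNPA1 and MYCN. CDKN2C had no probe set with 1 symbol. Many members of the 27 lists past the criterion are named as well, while others, such as EIF3B, RPL3 and SDHC, are only counted. Not all members picked by the largest p are named, GADD45B, HSPE1 and PRPH being among those left out. Some list members, such as FOS, EGR1, ATF3 and DBH, are named outside these rules. The genes and lists were chosen with earlier results of these data known. One control transcript is not reported here. The script was tested on simulated arrays. Alternatives were other normalizations, filters, variance models, array weights, a block, the GAPDH difference as a covariate, and each array left out. Following the probe set with the largest change, and the lists, through these was added after seeing the data.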

Additional observations from a re-analysis of the deposited data

How the results depend on the processing

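The count of 686 probe sets past the criterion, of 5 genes in every probe set and of 460 genes in the within-gene difference stayed within 1.5 times under cyclic loess, centring on the median, a floor of 5 on the mean log2, an intensity trend with robust estimation and the 6 arrays alone. Array weights gave 1476, 13 and 836, and the GAPDH covariate 289, 3 and 132. Without _x_at and _s_at probe sets 14 genes passed in every probe set left, all higher, and 287 in the within-gene difference; HBB then has no probe set and SELENOP only 1. At an adjusted p under 0.05 all 3 counts were 0 by limma. With 1 probe set per gene, the most variable gave 448 and the brightest 113, out of fewer tests.

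Leaving out 1 array gave 129 to 2231 probe sets, 2 to 39 genes and 99 to 1227 within-gene differences. The lowest were without fresh replicate 1 and the highest without fresh replicate 3. Without fresh replicate 2 there were 397 probe sets and 231 differences, without frozen replicate 1 there were 388, with 3 genes and 306 differences, without frozen replicate 2 there were 9 genes, without frozen replicate 3 there were 262 differences, and without replicate 1 of the arrays with gradient 1070 probe sets and 8 genes. The cause was not tested. For GAPDH the difference of 3' and 5' signals of -2.19 kept its sign, from -3.08 to -1.40.

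The replicate number as a block gave 1092 probe sets and 9 genes in every probe set. Deviations of same-numbered frozen and fresh arrays correlated at 0.387, 0.0583 and 0.497. Among these 6 arrays all but fresh replicate 2 correlated best with their own number in the other condition. Between the arrays with gradient and the fresh ones the same-numbered values were 0.701, 0.0323 and 0.755. The paper describes 3 biological replicates, A to C, under each condition. No label says that a number marks 1 marrow, so the main fit used no pairs, and it may ignore a pairing. None of the probe sets past the criterion that were followed one by one changed sign. Genes named from the lists alone were followed as counts per list. Signals near the low end of the scale, as in most granulocyte genes, limit the folds that can be seen there.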
